A study of Mus musculus with 27 samples.

Results

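The genes described here encode calmodulin and the protein kinases it switches on, and they are calm2, calm3, calml4, camk2a, camk2b, camk2d, camk2g, camk4 and camkk2, as the deposited expression table spells them in lower case. They are 9 of the 26264 gene symbols in that table, and they were chosen by name. The list was drawn up with earlier results of the treatment comparisons of these libraries known, so the treatment values below are a description. All 9 reached a mean of at least 1 FPKM (fragments per kilobase of gene, scaled to the counted fragments of the library) over the libraries and were among the 12976 genes tested. Calml4 passed only through a minority of libraries in which it was high.

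The libraries came from female 5xFAD mice on a C57BL6 background at 16 weeks of age. These mice carry human transgenes of familial Alzheimer's disease driven by a neuronal promoter, and since no mouse without the transgenes was used here, every group shared that background. Each mouse received 500 nL into the lateral parietal associative cortex of a single hemisphere. The solution held R33 or R55 at 10 mM, thiophene thioureas made to stabilise the retromer sorting complex, or it was the vehicle of cyclodextrin, saline and DMSO alone. A cortex block of about 1 mm3 was taken from each hemisphere 24 h later, so the injected and the contralateral block of a mouse were separate libraries. The 27 libraries came from 4 vehicle mice (J, M, L and AH), 5 R33 mice (K, AE, O, N and AD) and 5 R55 mice (P, AA, Q, R and AB). Both hemispheres were represented for 13 of the 14 mice, and mouse AE by its injected hemisphere only.

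Calmodulin is a small protein that binds calcium ions and then wraps around its target enzymes, which is how a calcium signal at a synapse is passed on. Its main neuronal target, CaMKII, is an assembly of subunits made from the Camk2a, Camk2b, Camk2d and Camk2g genes, and it stays active after the calcium pulse once a threonine beside its calmodulin site has been phosphorylated. CaMKK2, made from Camkk2, phosphorylates CaMKIV and the energy sensor AMPK, and CaMKIV, made from Camk4, acts in the nucleus on the transcription factor CREB. Calml4 encodes a calmodulin-like protein known from the microvilli of epithelial cells.

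Libraries held 15932197 to 38077027 counted fragments. The 5 excitatory neuron markers summed to 496 to 998 FPKM in every library, but some blocks also held RNA of neighbouring structures. Transthyretin (Ttr), the leading choroid plexus transcript, stood at 100 FPKM or more in 7 libraries, namely the contralateral blocks of J, K, O and P and the injected blocks of K, N and L, against a median of 14.5 FPKM over all. The 4 hippocampal markers summed to over 100 FPKM in both blocks of M and the injected block of O, with a median of 48.9 FPKM. The 6 striatal markers were highest in the injected blocks of N (281 FPKM) and L (191 FPKM). In such bulk tissue, fewer cells of a type and less RNA per cell cannot be told apart.

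Calm2 and Calm3 encode one and the same protein, 149 of 149 residues being identical in GENCODE models on GRCm39, the build used by the authors. Their transcripts are nonetheless easy to tell apart, since 78 of the 447 coding bases differ and no identical stretch between them is longer than 17 bases. The third exon of Calm2 (chr17:87743219-87743362, minus strand) and of Calm3 (chr7:16651510-16651653, minus strand) is shown because it makes this visible. It is coding sequence from codon 12 onwards, 144 bases in each gene, and the 24 bases in capitals are those that differ between them.
Calm2: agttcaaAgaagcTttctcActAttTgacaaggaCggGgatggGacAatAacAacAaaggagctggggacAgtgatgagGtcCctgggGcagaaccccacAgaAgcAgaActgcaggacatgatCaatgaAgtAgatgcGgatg
Calm3: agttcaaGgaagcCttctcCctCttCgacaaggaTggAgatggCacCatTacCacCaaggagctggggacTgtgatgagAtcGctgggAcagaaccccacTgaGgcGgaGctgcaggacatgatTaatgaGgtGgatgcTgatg

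The CaMKII subunits are less alike, with 84.1 to 90.1% identical residues between any pair over their aligned lengths. The exon that holds the regulatory threonine is shown for 3 of them, 84 coding bases each, with the codon of that threonine in capitals. It is exon 11 of Camk2b (chr11:5938955-5939038, minus strand), Camk2d (chr3:126591351-126591434, plus strand) and Camk2g (chr14:20810465-20810548, minus strand). Between Camk2b and Camk2d 17 of the 84 bases differ, between Camk2b and Camk2g 25, and between Camk2d and Camk2g 21. The whole exon thus tells these 3 genes apart, and Camk2a was not part of this comparison.
Camk2b: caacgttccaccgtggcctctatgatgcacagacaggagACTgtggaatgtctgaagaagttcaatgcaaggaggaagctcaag
Camk2d: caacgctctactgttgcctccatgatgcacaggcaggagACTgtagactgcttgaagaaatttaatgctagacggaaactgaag
Camk2g: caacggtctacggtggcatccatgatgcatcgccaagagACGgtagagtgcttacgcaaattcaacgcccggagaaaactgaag

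In order of level per length, averaged over the 27 libraries, the genes ran from Calm2 (mean 1126 FPKM, SD 114) through Camk2a (991, SD 169), Calm3 (843, SD 58.7), Camk2b (223, SD 37.6), Camk2g (93.2, SD 14.9), Camkk2 (70.4, SD 15.5), Camk4 (21.9, SD 5.80) and Camk2d (10.8, SD 3.26) to Calml4 (1.57, SD 1.97). The first of these were among the most abundant transcripts of the block: Calm2 ranked 7, Camk2a 12 and Calm3 18 among all tested genes. Neighbours at the top of this order overlapped, since Calm2 was above Camk2a in 21 of 27 libraries and Camk2a above Calm3 in 22 of 27. From Calm3 to Camk2b, from Camk2b to Camk2g and from Camkk2 to Camk4 the ranges did not touch. Camk2g exceeded Camkk2 in all 27 libraries, although their ranges overlapped. Camk4 exceeded Camk2d in 25 of 27, and its level depends on the gene length used. That length was 12331 bases as recovered from the deposited FPKM, against 2951 bases for the canonical transcript. The 2 lengths also differed for Camk2b (4166 against 2823 bases) and Calml4 (860 against 1534 bases).

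**Figure D1:**
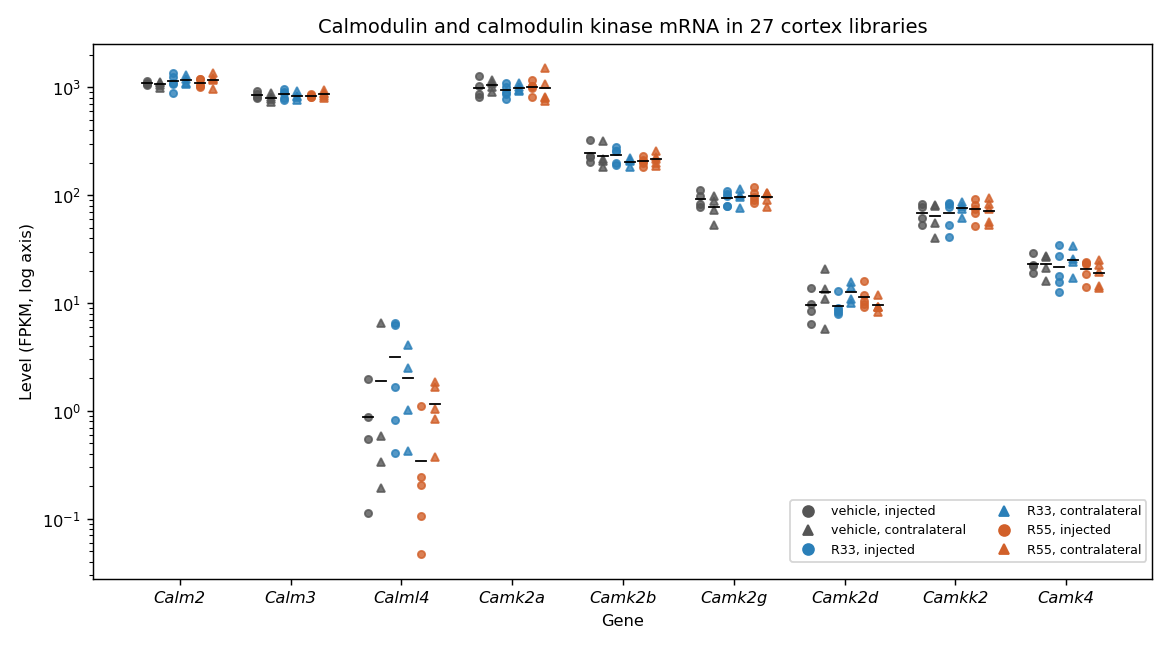
FPKM (log axis) of each gene in the 27 libraries, coloured by treatment, with circles for the injected and triangles for the contralateral hemisphere; black bars are group means (n = 4 or 5). Calm2, Calm3 and Camk2a lie between 731 and 1502 FPKM in every library, and Calml4 spreads from 0.0466 to 6.53 FPKM.

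The genes differed in how far they moved between libraries. Calm3 was the steadiest, with a coefficient of variation of 6.96% and an SD of 0.10 on the log2(FPKM + 1) scale, less than that of all but 8.06% of tested genes. Calm2 followed at 10.1%. Camk2g, Camk2b and Camk2a had coefficients of 16, 16.9 and 17.1%, and their log2 SD was larger than that of 77.9, 70.7 and 74.3% of tested genes. Camkk2 (22.0%), Camk4 (26.4%) and Camk2d (30.2%) varied more on the log2 scale than at least 90.7% of tested genes, and Calml4 (126%) more than 99.7%.

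Calm2 and Calm3, both of which encode calmodulin itself, had similar levels in all groups. In the injected hemisphere Calm2 stood at 1096 ± 39.6 FPKM with vehicle (SD, n = 4), 1135 ± 180.2 with R33 (n = 5) and 1097 ± 92.3 with R55 (n = 5), and in the contralateral hemisphere at 1067 ± 55.7 (n = 4), 1168 ± 101 (n = 4) and 1182 ± 144 (n = 5). The R33 and R55 libraries reached both above and below the vehicle libraries in the injected hemisphere, as did the R55 libraries in the contralateral one, while the contralateral R33 libraries began inside the vehicle range at 1072 FPKM and ended above it at 1295 FPKM. Calm3 ran from 731 to 929 FPKM with vehicle, from 768 to 959 with R33 and from 801 to 943 with R55, and its contralateral vehicle block of mouse J was the lowest of all 27. Of the summed Calm2 and Calm3 FPKM, Calm2 made up 57.1 ± 2.26% (SD over 27 libraries), within 53.0 to 61.0%.

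Camk2a dominated the CaMKII transcripts, with 74.9 ± 3.52% of the summed Camk2 FPKM over the 27 libraries, followed by Camk2b with 17.1 ± 3.0%, Camk2g with 7.19 ± 1.42% and Camk2d with 0.837 ± 0.267%. The highest Camk2a share, 83.4%, came from the contralateral block of R55 mouse R, where Camk2a itself reached 1502 FPKM. In the other contralateral R55 blocks Camk2a was 796 (P), 742 (AA), 808 (Q) and 1072 (AB) FPKM, so 1 library set the spread of that group. In the contralateral vehicle blocks it was 1174 (J), 1098 (M), 909 (L) and 1004 (AH) FPKM.

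Camk2b was highest in both blocks of vehicle mouse M, which carried hippocampal markers. This mouse had 326 FPKM in its injected and 315 FPKM in its contralateral block, while the other vehicle libraries ran from 181 to 230.3 FPKM and the R55 libraries from 184 to 258 FPKM. In the injected R33 blocks it was 258 (K), 279 (AE), 257 (O), 189 (N) and 201 (AD) FPKM. The 3 libraries with a hippocampal sum over 100 FPKM spanned 257 to 326 FPKM (median 315) and the other 24 spanned 181 to 279 FPKM (median 210.2). The part of hippocampal RNA in these levels was not tested.

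Camk2d, the subunit best known from heart and other non-neuronal tissue, was the rarest of the 4. In the contralateral vehicle blocks it was 20.8 (J), 5.71 (M), 13.4 (L) and 10.8 (AH) FPKM, which spans the whole range seen in the 27 libraries. In the injected vehicle blocks it was 13.7 (J), 6.45 (M), 8.35 (L) and 9.71 (AH) FPKM. Averaged over hemispheres, vehicle mice J (17.3 FPKM) and M (6.08 FPKM) lay outside the range of the treated libraries, 7.97 to 15.9 FPKM.

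Camk2g showed its lowest value, 52.4 FPKM, in the same contralateral block of vehicle mouse J. The other contralateral vehicle blocks had 73.6 (M), 87.5 (L) and 99.3 (AH) FPKM and the injected ones 83.7 (J), 77.6 (M), 111 (L) and 98.8 (AH) FPKM. R55 libraries ran from 78.6 to 119 FPKM and R33 libraries from 76.0 to 114 FPKM. The vehicle blocks of L and AH and the injected block of J lay within both ranges, and the injected block of M within that of R33.

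Camkk2, the upstream kinase, was likewise lowest in that block of J, at 39.8 FPKM. Its other contralateral vehicle values were 55.2 (M), 78.7 (L) and 81.4 (AH) FPKM, and the injected ones 53.1 (J), 61.3 (M), 83.4 (L) and 77.2 (AH) FPKM. The second lowest library was the injected block of R33 mouse O (40.9 FPKM), which carried hippocampal markers, and the highest was the contralateral block of R55 mouse R (94.9 FPKM). The 3 libraries with a hippocampal sum over 100 FPKM had 40.9 to 61.3 FPKM of Camkk2 (median 55.2). That range lay inside the 39.8 to 94.9 FPKM (median 77.3) of the other 24.

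Camk4, the nuclear kinase, was lowest in the injected block of O as well. The injected R33 blocks had 27.3 (K), 17.8 (AE), 12.6 (O), 34.7 (N) and 15.8 (AD) FPKM and the contralateral ones 33.5 (K), 25.8 (O), 24.2 (N) and 17.0 (AD) FPKM. With R55 the injected values were 23.7 (P), 14.2 (AA), 24.3 (Q), 23.1 (R) and 18.7 (AB) FPKM and the contralateral ones 22.5, 13.9, 14.5, 24.9 and 19.4 FPKM in the same order. The vehicle range, 16.2 to 28.8 FPKM, lay inside the R33 range and overlapped that of R55. Camk4 and Camk2a are on chromosome 18 of GRCm39, at positions 33067984 to 33328821 and 61058473 to 61121224, and Camkk2 is on chromosome 5 at 122869233 to 122917739.

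Calml4 was of another kind: it was near the limit of detection in most blocks, with 1 to 183 fragments per library, and it moved with choroid plexus markers. In the injected vehicle blocks it was 0.55 (J), 0.112 (M), 1.96 (L) and 0.875 (AH) FPKM and in the contralateral ones 6.52 (J), 0.584 (M), 0.336 (L) and 0.194 (AH) FPKM. With R33 the injected blocks gave 6.53 (K), 0.823 (AE), 0.403 (O), 6.29 (N) and 1.66 (AD) FPKM and the contralateral ones 4.07 (K), 2.51 (O), 1.01 (N) and 0.424 (AD) FPKM. With R55 the injected blocks gave 1.11 (P), 0.107 (AA), 0.0466 (Q), 0.206 (R) and 0.242 (AB) FPKM, and the contralateral ones 1.85, 1.68, 0.843, 0.372 and 1.04 FPKM in the same order.

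The 7 libraries with Ttr at 100 FPKM or more had 1.85 to 6.53 FPKM of Calml4 (median 4.07), and the other 20 had 0.0466 to 1.68 FPKM (median 0.487), so the ranges did not overlap. Among all other tested genes, the one whose log2 level followed Calml4 most closely over the 27 libraries, once group means were taken off, was Ttr itself (r = 0.96), and Folr1, the choroid plexus folate receptor, came next (r = 0.94). The summed choroid plexus and ependyma markers (Ttr, Kl, Folr1, Kcne2, Clic6 and Foxj1, all above 0 in every library) ran from 8.51 to 158 FPKM in the injected and 9.60 to 1146 FPKM in the contralateral vehicle blocks, from 12.1 to 1676 and 11.3 to 723 FPKM with R33, and from 6.63 to 72.8 and 9.12 to 160.5 FPKM with R55.

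**Figure D2:**
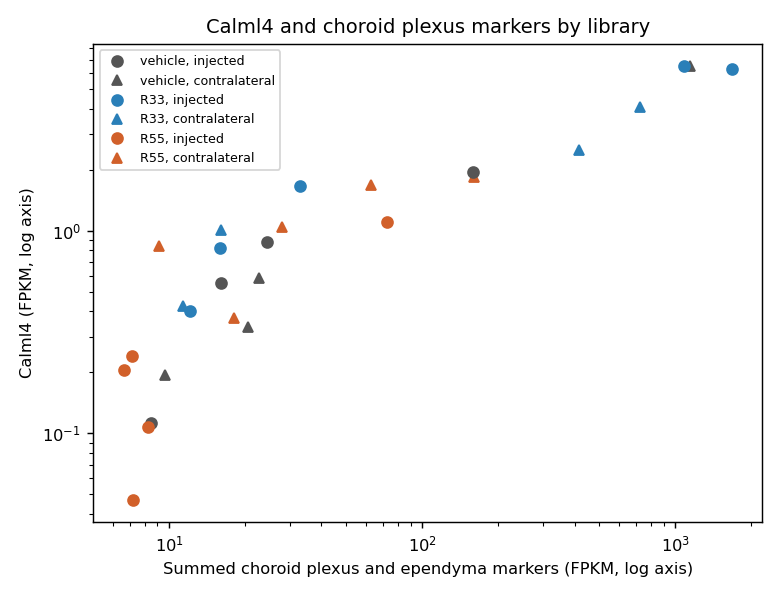
Calml4 FPKM against the summed FPKM of 6 choroid plexus and ependyma markers, both on log axes, 1 symbol per library (27), coloured by treatment, circles injected and triangles contralateral. The 7 libraries with the highest marker sums, from 158 to 1676 FPKM, had 1.85 to 6.53 FPKM of Calml4.

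Within mice the levels also moved together. Over the 13 mice, the difference between hemispheres in the choroid plexus sum and that in Calml4 had a Pearson r of 0.96 and a Spearman rho of 0.93. These are a description with no test, since Calml4 reached the mean of 1 FPKM through the libraries high in Ttr. Without the 2 mice farthest from the median marker difference r was 0.92. It was 0.96 over the 9 mice with labels of a single letter, and 0.90 over the 7 mice that had no block with Ttr at 100 FPKM or more. The remaining 4 mice, with labels of 2 letters, are too few for a value of their own. Calml4 also moved with the striatal marker sum, again a description with no test. Over the 13 mice their hemisphere differences had a Pearson r of 0.75 and a Spearman rho of 0.72. For this pair r was 0.52 without the 2 mice farthest from the median marker difference, and 0.55 over the 7 mice.

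The treatment comparisons asked whether a day of exposure to a retromer stabiliser altered gene expression. In a limma fit on log2(FPKM + 1) with treatment and hemisphere as factors, 0 of the 9 genes were called at an adjusted p under 0.05 for R55 against vehicle, where 0.00771% of all tested genes were called (1 of 12976). At an unadjusted p under 0.05 the count was 0 of 9, and 1096 of all genes. For R33 against vehicle 0 of 9 were called, with 0% of all genes, and 0 of 9 and 762 of all genes had an unadjusted p under 0.05. For R55 against R33 the call was again 0 of 9, with 0% of all genes, and 1 of 9 (Calml4) and 149 of all genes had an unadjusted p under 0.05. These fits treat the hemispheres of a mouse as independent. With the mouse as a block, 0 of all tested genes were called in each of the 3 comparisons, 519, 292 and 55 of them had an unadjusted p under 0.05, and the members with such a p were 0 of 9 in each.

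The largest fitted difference of a kinase gene between R55 and vehicle was that of Camk2g. Averaged over hemispheres, vehicle mice had 68.0 (J), 75.6 (M), 99.2 (L) and 99.1 (AH) FPKM and R55 mice 96.2 (P), 87.5 (AA), 92.1 (Q), 111 (R) and 101 (AB) FPKM, with a log2 fold change of 0.21 ± 0.11 (SE). The R55 mice were above J and M and on both sides of L and AH. Without mouse J the log2 fold change of Camk2g was 0.10.

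Camkk2 had 46.5 (J), 58.2 (M), 81.1 (L) and 79.3 (AH) FPKM in the vehicle mice and 73.7 (P), 54.3 (AA), 67.5 (Q), 93.9 (R) and 75.6 (AB) FPKM in the R55 mice, a log2 fold change of 0.15 ± 0.16. That value rested on J, as it was -0.01 without this mouse. Camk4 had a log2 fold change of -0.21 ± 0.17 and Camk2b one of -0.14 ± 0.10, which without vehicle mouse M was 0.01. With each mouse left out in turn Camk4 ran from -0.33 (without J) to -0.10 (without AA), and with the trend on gene length removed from each library it was -0.00. The values for Calm2 (0.07 ± 0.08), Calm3 (0.05 ± 0.06), Camk2a (-0.05 ± 0.12), Camk2d (-0.00 ± 0.17) and Calml4 (-0.22 ± 0.36) were all smaller than their SE.

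Mouse labels came in forms of 1 and of 2 letters, and the labels do not say whether this marks a series of animals. Among the 1-letter mice (3 vehicle, 3 R55) the mean log2 difference of R55 from vehicle was 0.32 for Camk2g and 0.35 for Camkk2, and among the 2-letter mice (1 vehicle, 2 R55) it was -0.07 and -0.31. For Camk4 it was -0.02 and -0.54, and for Camk2b -0.23 and 0.08. It was 0.02 and -0.17 for Camk2a, 0.08 and -0.11 for Camk2d, and -0.35 and 0.15 for Calml4. The direction thus differed between label forms for all of these genes except Camk4, with a single vehicle mouse on the 2-letter side. Calm2 and Calm3 kept their direction.

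For R33 against vehicle, Calml4 had the largest value, a log2 fold change of 0.65 ± 0.37, and the choroid plexus markers given above moved with it. Without the 7 libraries with Ttr at 100 FPKM or more it was 0.37 ± 0.23. Camk2g was next at 0.17 ± 0.11, and 0.02 ± 0.11 without these libraries. Camkk2 (0.11 ± 0.16, and -0.12 ± 0.19 without these libraries), Calm2 (0.08 ± 0.08), Calm3 (0.04 ± 0.06), Camk2d (0.04 ± 0.18), Camk4 (-0.04 ± 0.17), Camk2a (-0.07 ± 0.12) and Camk2b (-0.08 ± 0.11) made up the rest. Camk4 was -0.40 ± 0.17 without the libraries high in Ttr, which include both blocks of K and the injected block of N, its 3 highest R33 values. R33 and R55 were set against the same vehicle mice, so these values are not independent of those for R55.

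R33 and R55 were injected in the same volume and at the same concentration. The difference of R55 from R33 on the log2 scale was -0.01 for Calm2 (95% interval -0.17 to 0.14), 0.01 for Calm3 (-0.11 to 0.13) and 0.02 for Camk2a (-0.21 to 0.26). It was -0.06 for Camk2b (-0.27 to 0.15), -0.04 for Camk2d (-0.39 to 0.30), 0.05 for Camk2g (-0.17 to 0.27), 0.04 for Camkk2 (-0.27 to 0.36) and -0.17 for Camk4 (-0.51 to 0.17). The interval was narrowest for Calm3 and widest, among the kinases, for Camk2d and Camk4, so that a small difference in these kinases was not detectable. Calml4 had the largest difference, -0.88 (-1.59 to -0.16), -0.85 (-1.74 to 0.04) with the mouse as a block, and -0.24 (-0.68 to 0.21) without the libraries high in Ttr.

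**Figure D3:**
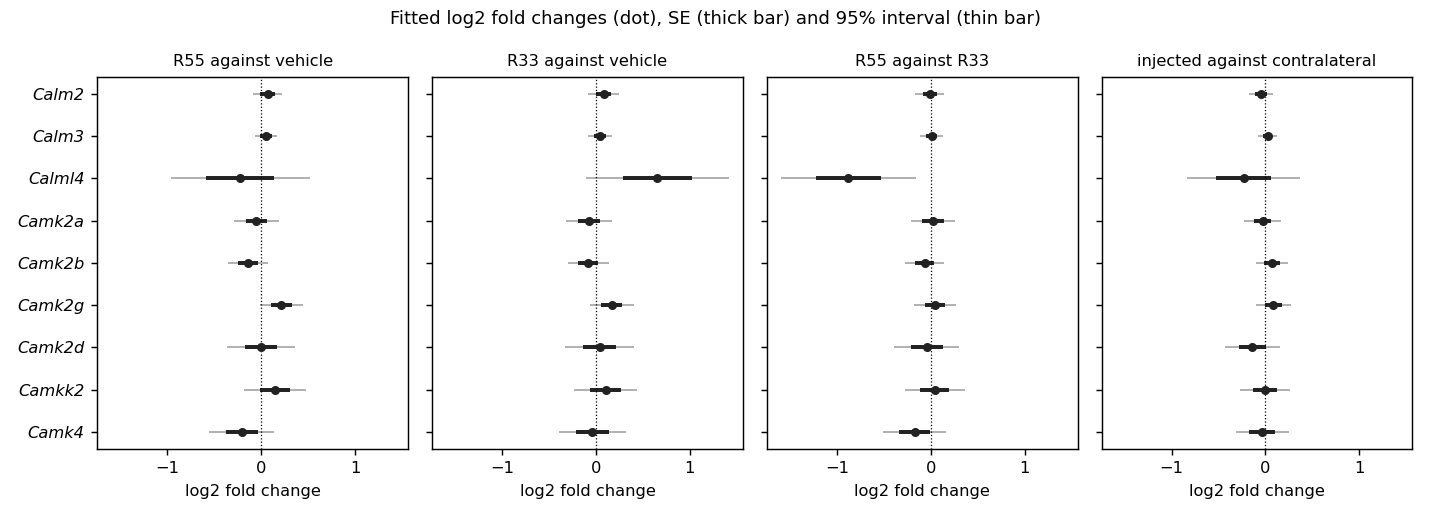
Log2 fold change of each gene in 4 comparisons (dot), with SE (thick bar) and 95% interval (thin bar) from the limma fit on 27 libraries; the dotted line is 0. All kinase and calmodulin intervals include 0, as does that of Calml4 except for R55 against R33, where it includes 0 once the mouse is a block (-1.74 to 0.04).

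The averages of treated and vehicle mice overlapped for each of the genes. Mouse means did not overlap between R55 and vehicle for 2.41% of all tested genes, between R33 and vehicle for 0.771% and between R55 and R33 for 0.1%, and none of the 9 genes was among them in any of the 3 comparisons. The R55 difference was also compared between hemispheres by an interaction term. That term called 0 of 9 genes, with 0% of all genes called and 239 of all genes and 0 of 9 at an unadjusted p under 0.05. With the mouse as a block it called 0 of 9 and 0 of all genes. In that fit 796 of all genes and 1 of 9 had an unadjusted p under 0.05. The 1 member was Camk2d, with an adjusted p of 0.797 by limma. The largest estimate was that of Camk2d, 0.52 ± 0.33 (SE) in the fit without the block and 0.52 ± 0.25 with it. For Camk2d the injected block was lower than the contralateral one in 3 of 4 vehicle mice and higher in 3 of 5 R55 mice.

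The comparison of hemispheres did not bear on the choice of the genes and was tested. By limma, 0 of 9 genes were called between injected and contralateral blocks, as were 0% of all tested genes. This fit treats the hemispheres of a mouse as independent, and 0 of 9 and 450 of all genes had an unadjusted p under 0.05. With the mouse as a block over the 13 mice with both hemispheres, 0 of 9 and 0 of all genes were called. The smallest adjusted p was then 0.0969 over all genes and 0.903 among the members. In the block fit 0 of 9 and 795 of all genes had an unadjusted p under 0.05. The log2 fold changes below are from the fit without the block. The log2 fold changes, injected against contralateral, were -0.04 ± 0.06 (SE) for Calm2, 0.02 ± 0.05 for Calm3, -0.03 ± 0.09 for Camk2a, 0.07 ± 0.08 for Camk2b, -0.14 ± 0.14 for Camk2d, 0.08 ± 0.09 for Camk2g, -0.03 ± 0.14 for Camk4, -0.01 ± 0.13 for Camkk2 and -0.23 ± 0.29 for Calml4, with an adjusted p of 1.0 for each. Within mice, Calm3 was higher in the injected block of all 4 vehicle mice (mean difference 0.08 ± 0.03 SD) and in 4 of the 9 treated mice. Calml4 was lower in the injected block of all 5 R55 mice (mean difference -0.69 ± 0.41 SD) and higher in 3 of 4 R33 mice. The choroid plexus and ependyma sum was also lower in the injected block of each R55 mouse. Camk2d was lower in the injected block of all 4 R33 mice (mean difference -0.36 ± 0.26 SD) and of 3 of 4 vehicle mice, and higher in 3 of 5 R55 mice. The share of all tested genes with 1 sign in such small groups was not counted, so these are a description. Among the 9 single-letter mice the mean difference was 0.15 ± 0.13 (SD) for Camk2b, and among the 4 others it was -0.17 ± 0.21.

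No share of a CaMKII subunit gene passed the test between hemispheres. In the 13 mice Camk2a made up 74.3% of the summed Camk2 FPKM in injected and 75.4% in contralateral blocks, a difference of -1.15 ± 4.97 percentage points (SD), positive in 7 mice and negative in 6 (two-sided exact sign-flip permutation test, p = 0.427, adjusted p = 0.547). Camk2b took 17.4 and 16.7%, Camk2g 7.53 and 6.98% and Camk2d 0.814 and 0.882%, each with an adjusted p of 0.547 in the exact test over the 4 genes. Calm2 made up 56.8% of the summed Calm2 and Calm3 FPKM in injected and 57.7% in contralateral blocks, lower in the injected block of 10 of 13 mice (difference -0.85 ± 2.85 points, exact p = 0.298). The smallest p that 13 mice allow is 0.00024.

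**Figure D4:**
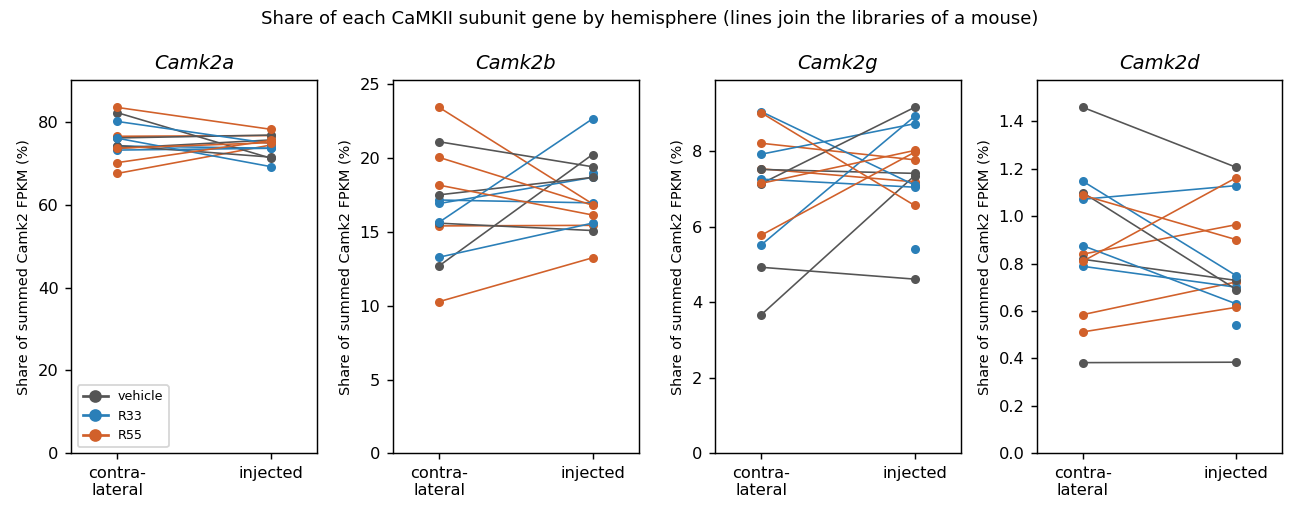
Share of each subunit gene in the summed Camk2 FPKM (%) in the contralateral and the injected block, lines joining the blocks of a mouse, coloured by treatment; the unjoined R33 point is mouse AE. Camk2a lies between 67.5 and 83.4% and Camk2d between 0.382 and 1.46%, and lines run in both directions for each gene.

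Although no kinase gene was called between hemispheres, the differences of 3 of them moved together from mouse to mouse, in a comparison added after the values were seen. The hemisphere differences of Camkk2 and Camk4 had a Pearson r of 0.94 and a Spearman rho of 0.79 over 13 mice (permutation p = 5e-05 and 0.00198, adjusted p = 0.0018 and 0.0356 over 36 pairs of genes). In R33 mouse O both were lower in the injected block, by 0.94 and 0.98 on the log2(FPKM + 1) scale, and in R55 mouse Q both were higher, by 0.61 and 0.71. Without the 2 mice farthest from the median in Camk4 r was 0.77, over the 9 single-letter mice 0.98, and without mice M and O, whose blocks carried hippocampal markers, 0.86. Over the 7 mice with no block high in Ttr it was 0.83.

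Camkk2 and Camk2g moved together as well, with a Pearson r of 0.78 and a Spearman rho of 0.85 (permutation p = 0.00066 and 0.00047, adjusted p = 0.0119 and 0.0169), 0.75 without the 2 mice farthest from the median in Camk2g and 0.79 over the single-letter mice. For Camk2g and Camk4 r was 0.71 and rho 0.71 (adjusted permutation p = 0.0462 and 0.0983). No other pair among the 36 had an adjusted p under 0.05. The hippocampal marker sum ran the other way from Camkk2 (r = -0.77, rho = -0.77, adjusted permutation p = 0.0363 and 0.0736 over 108 pairs of a gene and a marker list) and from Camk4 (r = -0.78, rho = -0.70, adjusted p = 0.0363 and 0.0982). Without mice M and O r was -0.63 and -0.64, without the 2 mice farthest from the median marker difference -0.58 and -0.55, and over the 7 mice with no block high in Ttr -0.44 and -0.42. For Camk2g and the hippocampal sum r was -0.68 and rho -0.77 (adjusted permutation p = 0.144 and 0.0736). In the same order of mice left out, its r was -0.62, -0.53 and -0.25. The microglia marker sum also ran the other way from Camkk2 (r = -0.63), Camk2g (r = -0.74) and Camk4 (r = -0.55). Their adjusted permutation p was 0.193, 0.058 and 0.306 by Pearson and 0.0736, 0.0982 and 0.0982 by Spearman. Over the 7 mice with no block high in Ttr r was -0.75, -0.89 and -0.62. For astrocyte markers r was -0.59, -0.53 and -0.61 (adjusted permutation p = 0.204, 0.325 and 0.193). How far tissue from outside the cortex, or the mix of cell types, accounts for the joint movement of the 3 kinases was not tested.

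**Figure D5:**
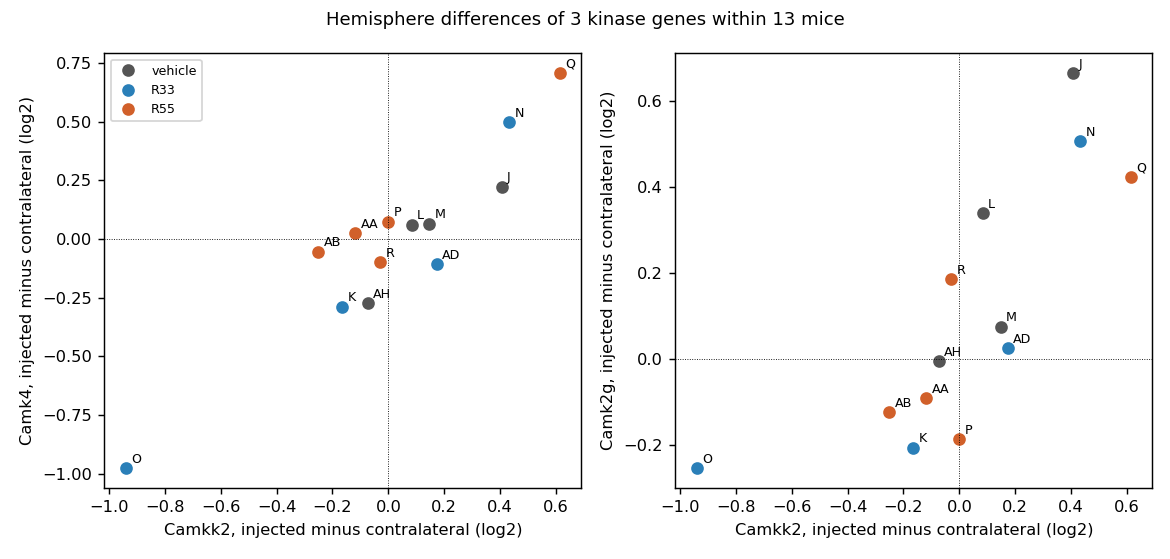
Injected minus contralateral log2(FPKM + 1) of Camk4 (left) and Camk2g (right) against that of Camkk2, 1 point per mouse (13), labelled by mouse and coloured by treatment; dotted lines mark 0. Mouse O lies at the lower left, at -0.94 for Camkk2, and mouse Q at the right, at 0.61.

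The tested genes whose levels followed each member most closely over the 27 libraries, after group means were taken off, are given as a description. These libraries share animals, depth and the mixture of structures in the block. Camk2a was closest to Shank3 (r = 0.87), Jph3 (0.87) and Ppp1r9b (0.84), the first and last of which encode scaffold proteins of the postsynaptic spine. Camk2b was closest to Hpca (0.89), which encodes the neuronal calcium sensor hippocalcin, Plekhg5 (0.87) and Nmt1 (0.87). Camk2g was closest to Sytl2 (0.92), Mtcl1 (0.92) and Nat8l (0.91), and Camk2d to Plxnc1 (0.88) and Timp2 (0.87).

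Camk4 was closest to Exph5 (0.94), Ppp1r9a (0.93) and Pak7 (0.93), and Camkk2 to Kcnk4 (0.95), Rassf3 (0.95) and Osbpl1a (0.95). Calm2 was closest to Ensa (0.86), Cep19 (0.85) and Ccdc32 (0.82), and Calm3, the steadiest of the genes, to Dusp5 (0.76), Rcc2 (0.75) and Ubtf (0.74). Besides Ttr and Folr1, Calml4 was close to 2900040C04Rik (0.94).

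Around these genes, 90 others of the calmodulin pathway were listed in 7 groups, of which 84 were tested, and 0 were called in any of the comparisons by limma. The lists were drawn up with earlier results of these data known, so the counts and medians below are a description. For R55 against vehicle 28 were higher and 56 lower, 4 and 8 of them at an unadjusted p under 0.05, with a median log2 fold change of -0.06 against 0.03 for all tested genes. For R33 against vehicle 30 were higher and 54 lower, 4 and 5 at an unadjusted p under 0.05 (median -0.05, all genes 0.02). For R55 against R33 the split was 42 and 42, with 0 at an unadjusted p under 0.05. Between hemispheres 54 were higher in the injected block and 30 lower, 2 and 0 of them at an unadjusted p under 0.05 (median 0.02, all genes 0.00). For the interaction 51 were higher and 33 lower, 2 and 0 of them at an unadjusted p under 0.05 (median 0.04, all genes -0.03). Of all tested genes, 57.5% were higher for R33 against vehicle, 53.4% for R55 against R33, 50.7% in the injected block and 41.7% for the interaction. In the same order, higher and lower genes at an unadjusted p under 0.05 numbered 414 and 348, 95 and 54, 189 and 261, and 78 and 161.

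Over all tested genes, 60.2% were higher with R55 than with vehicle, and 611 higher and 485 lower had an unadjusted p under 0.05. By group, higher and lower genes numbered 4 and 3 among other calmodulin and calmodulin kinase genes, 2 and 8 among CaMKII inhibitors and anchors, 5 and 7 among calcineurin and its regulators, and 4 and 3 among calmodulin-binding buffer proteins. They numbered 7 and 15 among calmodulin-regulated enzymes, 1 and 9 among synaptic substrates of CaMKII, and 5 and 11 among transcription factors and coactivators downstream of calcium. The lowest log2 fold change of any listed gene was that of Grin2b, the NMDA receptor subunit that anchors active CaMKII, with -0.62 ± 0.18 (SE) for R55 against vehicle (adjusted p = 0.327 by limma) and -0.55 ± 0.18 for R33 against vehicle (adjusted p = 0.834). Next to it stood Nos1, the calmodulin-dependent neuronal nitric oxide synthase, with -0.58 ± 0.20 for R55, and Atp2b4, a calmodulin-regulated calcium pump, with -0.38 ± 0.21 for R33. The highest were Camk2n2, an inhibitor protein of CaMKII (0.33 ± 0.12), and Mylk3 (0.30 ± 0.17) for R55, and Rcan2, a regulator of calcineurin (0.44 ± 0.11), and Pcp4l1 (0.31 ± 0.13) for R33.

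For R55 against R33 the extremes were Rem2 (-0.31 ± 0.23), Rcan2 (-0.21 ± 0.11), Atp2b4 (0.26 ± 0.19) and Mylk3 (0.26 ± 0.17). Between hemispheres they were Atp2b4 (-0.26 ± 0.16), Pnck (-0.22 ± 0.13), Rem2 (0.23 ± 0.19) and Pcp4l1 (0.24 ± 0.11). For the interaction of R55 with hemisphere they were Rem2 (-0.46 ± 0.45), Pcp4l1 (-0.40 ± 0.26), Nos1 (0.57 ± 0.40) and Atp2b4 (0.72 ± 0.35). None of these passed the adjusted threshold.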

How the data were processed

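Female 5xFAD mice were injected with vehicle, R33 or R55, and cortex of both hemispheres was sequenced as stranded mRNA libraries with paired-end reads. The authors used HISAT2 with GRCm39 for alignment, and the table they deposited gives FPKM for each gene symbol in 32 libraries. The counting tool and annotation are not given in the sources used here. Whole fragments and gene lengths were recovered from the deposited FPKM (100.0% of values above 0 whole within 0.01 fragments), and 1 leftover header line per library was dropped. The 5 other libraries in the table were not used here.

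The genes and lists were chosen with earlier results of these data known. Genes named besides the members followed a rule: for each member the 3 genes closest in level, and from the pathway lists the 2 highest and 2 lowest log2 fold changes of each comparison. A gene that this rule names is not reported here. Correlations over mice and the sets of libraries left out for Ttr or hippocampal markers were added after the values were seen. Marker lists covered 12 cell types or structures.

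Genes averaging 1 FPKM or more (12976) were fitted as log2(FPKM + 1) with limma 3.58.1 (R 4.3.3) on treatment and hemisphere, using its intensity trend. P-values were adjusted over all of them by Benjamini-Hochberg, and the script was first tested on simulated data. The log-scale fit was chosen because the deposited unit is FPKM, and limma voom on the recovered fragments was an alternative. Hemispheres were paired by the mouse label they share. Deviations from group means correlated within 13 pairs with a mean of 0.394 (-0.0787 to 0.648), and the mouse as a block was an alternative. Shares were compared by exact sign flips over mice (scipy 1.17.1). Alternatives also covered size factors, filters on low values, no intensity trend, only the treatments compared, a pseudocount of 0.1, 1 value per mouse, single hemispheres, label letters, gene length trends (lowess span 0.3) and each mouse left out. Sequences and positions came from the GENCODE annotation of GRCm39. The methods state 6 mice per group, whereas 4 to 5 were used here.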

Additional observations from a re-analysis of the deposited data

Results flagged for a closer look

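Of 54 groups of 4 or 5 libraries (9 genes, 3 treatments, 2 hemispheres), 4 held a library far from the others by Dixon's criterion, where chance alone flags about 1 in 20 groups. Calml4 in the contralateral vehicle block of mouse J was 6.52 FPKM, with 0.194 to 0.584 FPKM in the other 3, and the same library had 1109 FPKM of Ttr. Calml4 in the injected R55 block of mouse P was 1.11 FPKM, with 0.0466 to 0.242 FPKM in the other 4, and 65.4 FPKM of Ttr stood beside it. Camk2d in the injected R33 block of mouse O was 12.8 FPKM, with 7.97 to 9.08 FPKM in the other 4, and that library had a hippocampal marker sum of 119 FPKM. Both blocks of vehicle mouse M, with higher sums of 129 and 158 FPKM, had the lowest Camk2d of all 27 libraries (6.45 and 5.71 FPKM), and the contralateral block of O, with a sum of 50.9 FPKM, had 14.1 FPKM. Camk2d in the contralateral R55 block of mouse Q was 11.9 FPKM, with 8.20 to 9.23 FPKM in the other 4. The part of these structures in the values was not tested.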

How the results depend on the processing

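The count of 0 called members held in the 29 alternatives to each treatment comparison, the 26 to the hemisphere comparison and the 16 to the interaction. The smallest adjusted p of a member in any of them was 0.306, and at most 1 member had an unadjusted p under 0.05. Called genes of the whole table ranged from 0 to 50 for R55 against vehicle (50 without R33 mouse AD), from 0 to 2 for R33 against vehicle and for R55 against R33, and were 0 between hemispheres. With at least 10 fragments in every library 8 members were tested, and Calml4 had no value. With the mouse as a replicate block no member was called, the 1 gene of the whole table called for R55 against vehicle was not, and Camkk2 between hemispheres was 0.021 in place of -0.01. Of the hemisphere log2 fold changes, 13 changed sign, all within their SE: Camkk2 also without R33 mice K, AE or O or R55 mice AA or AB (range over all mice left out -0.058 to 0.061), at 0.041 without the libraries high in hippocampal markers and 0.013 with the block and the length trend removed; Camk4 without R33 mouse O (range -0.092 to 0.037) and at 0.021 without the hippocampal libraries; Camk2a without vehicle mouse J (range -0.063 to 0.0099); and, without the libraries high in Ttr, Calm3 (-0.0038) and Camk2d (0.0058). Over all alternatives, the treatment values of 7 of 9 members took both signs for R55 against vehicle (Camk2d from -0.26 to 0.26), of 5 for R33 against vehicle and of 8 for R55 against R33. Treatment values of Calml4 moved most, to 1.33 for R33 against vehicle with voom and to -1.62, -1.69 and -0.24 for R55 against R33 with a pseudocount of 0.1, with voom and without the libraries high in Ttr. The cause was not tested. Subunit shares kept their sign and stayed above 0.05 in the exact test when each mouse was left out (Camk2a -1.81 to -0.33, Camk2b 0.09 to 1.26, Camk2d -0.10 to -0.04, Camk2g 0.29 to 0.80 and Calm2 -1.34 to -0.56 points) or fragments replaced FPKM. Depth limits Calml4, with as few as 1 fragment in a library.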

Other observations

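Camkk2 and Camk4 with hippocampal markers had an adjusted permutation p under 0.05 by Pearson's r over the 13 mice. Besides these, 1 other pair of a gene and a marker list that does not involve Calml4 did so. This was Calm2 with the oligodendrocyte precursor markers Pdgfra and Cspg4 (r = -0.78, rho = -0.76, adjusted permutation p = 0.0363 and 0.0736 over 108 pairs). Without the 2 mice farthest from the median marker difference r was -0.77, over the 9 single-letter mice -0.84, and over the 7 mice with no block high in Ttr -0.81. The precursor markers summed to only 4.37 to 12.9 FPKM per library.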
